A study of Nicotiana tabacum with 8 samples.

Results

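Cation transport in these tobacco leaf transcriptomes was followed through *CHX18*, *NCX1*, *CAX3* and *CNGC1*, each of another class of transport protein. These 4 genes, of 81378 in the count table, are the cation transport genes that the study listed with identifiers after comparing the same libraries. They were selected on their differences between S-WT and S-OE2 and between C-OE2 and S-OE2. The values and calls of those comparisons are therefore a description, given with no p-value. From its list of genes affected by overexpression the study left out those that differed between C-WT and C-OE2. From its list of genes affected by salt it left out those that differed between C-WT and S-WT. This can lower what these 2 comparisons show for the 4 genes, and through which list each gene came is not stated.

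The plants were tobacco (*Nicotiana tabacum*), either the wild-type cultivar Zhongyan 100 (WT) or OE-2, a homozygous line of that cultivar that constitutively overexpresses the calcineurin B-like gene *NtCBL5A*. OE-2 is a single transgenic line, so an effect of *NtCBL5A* and an effect particular to this line cannot be told apart. C-WT and C-OE2 were grown without added NaCl, and S-WT and S-OE2 were sampled 4 days after NaCl was first added, in a lower dose that was raised to 100 mM the day after, all in a hydroponic system in a greenhouse. Blades of the leaf at position 5, without main veins, of 4 plants aged about 34 days were pooled for each library. Each of the 4 groups had 1 library in Experiment 1 and 1 in Experiment 2, which gives 8 libraries and 2 per group.

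The total count on genes was 18674594 to 31672013 per library. All 12 photosynthesis genes with identifiers in the study, taken as markers of green leaf blade, had counts in every library and made up 1.14% to 3.36% of the total, with 1.40% and 1.14% in the S-OE2 libraries. The gene *NtCBL5A* is not paired with an identifier in the sources used here. Nitab4.5_0007367g0040 was at 0 throughout WT and at 12311 to 18196 counts in OE-2. It was chosen for this pattern by means of the line labels, so it is no check of them. Its tie to *NtCBL5A* was not tested. Leaf blades hold several cell types, and in such bulk samples fewer cells of a type and less RNA per cell cannot be told apart.

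Cation/H+ exchangers of the CHX family carry monovalent cations such as K+ across internal and plasma membranes. CAX proteins are Ca2+/H+ exchangers that load Ca2+ into the vacuole, and in Arabidopsis *CAX3* acts together with its relative *CAX1*. Proteins named NCX resemble the Na+/Ca2+ exchangers of animals, and cyclic nucleotide-gated channels (CNGCs) are Ca2+-permeable channels that calmodulin regulates. In Arabidopsis several CNGCs are known for their part in the Ca2+ signals of plant immunity, and calcineurin B-like proteins are Ca2+ sensors that act through protein kinases on ion transport.

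*CHX18* (Nitab4.5_0006998g0030) lies on the plus strand of scaffold Nitab4.5_0006998 from 38 to 2437, with a counted length of 2310 bases. *NCX1* (Nitab4.5_0005404g0030) lies on the minus strand of scaffold Nitab4.5_0005404 from 20441 to 21829, and its counted length of 1389 bases equals that span. *CAX3* (Nitab4.5_0000102g0080) lies on the plus strand of scaffold Nitab4.5_0000102 from 402565 to 409321, of which 855 bases were counted. *CNGC1* (Nitab4.5_0000258g0120) lies on the plus strand of scaffold Nitab4.5_0000258 from 470357 to 475741, of which 2127 bases were counted. Positions are those of the deposited table. Tobacco is an allotetraploid, and how reads that match near-identical copies were counted, or whether strand was used, is not given in the sources used here, so each level may include or lack reads of a close copy.

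Without added salt the 4 genes were far apart in level. *CAX3* was high, *NCX1* and *CNGC1* were low, and *CHX18* was at the edge of detection. Levels between genes are given per length, as FPKM, the fragments counted relative to gene length and to a scaling value of each library. That value was not the total count: it was 49.0% of it in C-WT of Experiment 1 and 97.6% in S-OE2 of Experiment 2. In the 4 control libraries the level of *CAX3* was 62.6 to 90.0 FPKM, and 93.7% to 95.2% of the genes with counts had a lower value. The level of *NCX1* was 0.921 to 1.42 FPKM in the same libraries, with 24.7% to 29.6% of genes below it. For *CNGC1* it was 0.0292 to 0.795 FPKM, with at most 22.0% of genes below. *CHX18* had 0, 0, 1 and 8 counts in the control libraries.

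**Figure D1:**
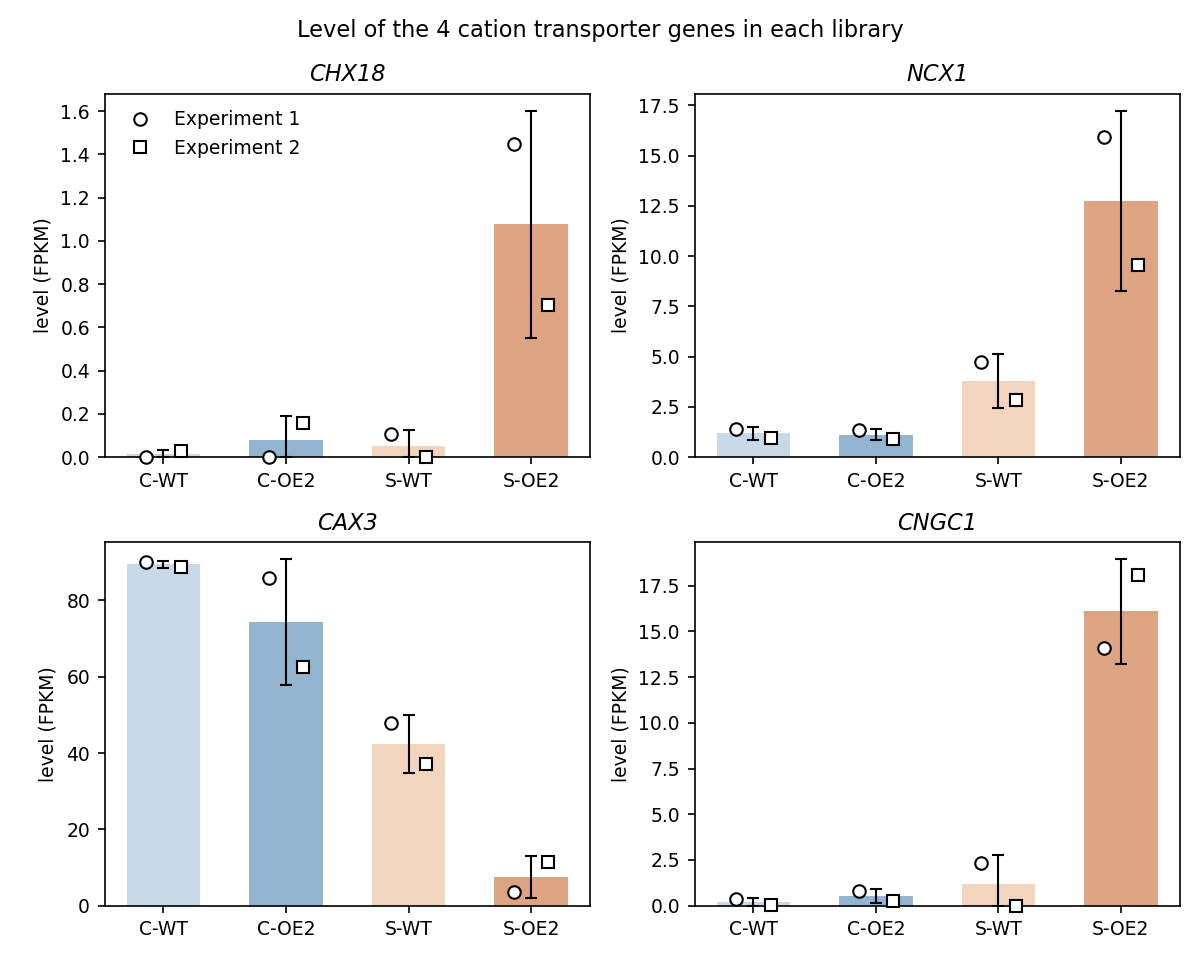
Level of each gene in FPKM (vertical axes, linear and different between panels) by group. Bars are the mean of 2 libraries, error bars are 1 SD (stopped at 0), circles are Experiment 1 and squares Experiment 2. Both S-OE2 libraries lie above all others for *CHX18*, *NCX1* and *CNGC1*, and below all others for *CAX3*.

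*CAX3*, the vacuolar Ca2+/H+ exchanger, had its lowest level in S-OE2, unlike the other 3 genes. In C-WT its level was 90.0 FPKM in Experiment 1 and 88.8 in Experiment 2. The C-OE2 libraries gave 85.9 and 62.6 FPKM, those of S-WT 47.8 and 37.0, and those of S-OE2 3.67 and 11.4. C-WT and C-OE2 adjoined each other, both S-WT libraries lay below all 4 control libraries, and both S-OE2 libraries lay below those of S-WT. The mean was 89.4 ± 0.895 FPKM for C-WT and 74.3 ± 16.5 for C-OE2. For S-WT it was 42.4 ± 7.62 and for S-OE2 7.52 ± 5.45 FPKM (SD, n = 2 each). The gap between the C-WT and C-OE2 means was smaller than the SD of C-OE2, whereas the other neighbours in this order were further apart than their SDs.

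The size of the *CAX3* decrease differed between the experiments. From S-WT to S-OE2 its level in CPM (counts scaled to library size) was 12.3-fold lower in Experiment 1 and 3.07-fold lower in Experiment 2. From C-OE2 to S-OE2 it was 22.0-fold and 5.11-fold lower. In S-OE2 the counts behind these values were 77 in Experiment 1 and 227 in Experiment 2, and the level there differed between the experiments by a larger ratio than in any other group. In the fit over all 8 libraries the log2 fold change was -2.45 ± 0.45 (SE) from S-WT to S-OE2 and -3.24 ± 0.46 from C-OE2 to S-OE2. Without the S-OE2 library of Experiment 1 these became -1.66 and -2.45, and without that of Experiment 2 they became -3.56 and -4.36.

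*NCX1*, the Na+/Ca2+ exchanger-like gene, was highest in S-OE2 and intermediate in S-WT, with nearly the same ratios in both experiments. In C-WT its level was 1.42 FPKM in Experiment 1 and 0.941 in Experiment 2, from 18 and 21 counts. In C-OE2 it was 1.33 and 0.921 FPKM, from 24 and 28 counts. The S-WT libraries gave 4.73 and 2.85 FPKM, the latter from 70 counts. The S-OE2 libraries gave 15.9 and 9.56 FPKM from 542 and 310 counts. The C-WT and C-OE2 values interleaved, both S-WT libraries lay above them, and both S-OE2 libraries lay above S-WT. The mean was 1.18 ± 0.335 FPKM for C-WT, 1.12 ± 0.288 for C-OE2, 3.79 ± 1.33 for S-WT and 12.7 ± 4.49 for S-OE2 (SD, n = 2 each). The first 2 of these groups differed by less than their spread, and their order turned when libraries were scaled by total count.

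From S-WT to S-OE2 the level of *NCX1* in CPM was 3.56-fold higher in Experiment 1 and also 3.56-fold higher in Experiment 2. The exact 95% intervals of these ratios were 2.89 to 4.42 and 2.74 to 4.68, and like all intervals here they cover counting error only. From C-OE2 to S-OE2 the ratio was 12.7 (8.47 to 20.1) and 11.2 (7.58 to 17.1). The log2 fold changes of the fit were 1.83 ± 0.25 and 3.57 ± 0.28 (SE). The biological coefficient of variation of *NCX1*, which is the fitted spread between libraries beyond counting noise, was 18.9%, below the common value of 24.2% and the smallest of the 4 genes. It was 30.4% for *CAX3*, 61.0% for *CHX18* and 68.3% for *CNGC1*.

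*CNGC1*, the cyclic nucleotide-gated channel gene, was high in S-OE2 alone, and the experiments differed widely elsewhere. Experiment 1 gave 7 counts for C-WT, 22 for C-OE2, 81 for S-WT and 734 for S-OE2. Experiment 2 gave 1, 11, 0 and 899 counts for the same groups. With Experiment 1 first, the levels were 0.359 and 0.0292 FPKM for C-WT, 0.795 and 0.236 for C-OE2, 2.32 and 0 for S-WT, and 14.1 and 18.1 for S-OE2. The S-OE2 libraries stood above all others, while the ranges of C-WT, C-OE2 and S-WT overlapped. The S-OE2 mean was 16.1 ± 2.85 FPKM and the S-WT mean 1.16 ± 1.64 FPKM (SD, n = 2 each), and the C-OE2 and C-WT means were 0.516 ± 0.395 and 0.194 ± 0.233 FPKM, so the lower 3 groups did not differ beyond their spread.

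From S-WT to S-OE2 the level of *CNGC1* in CPM was 6.43-fold higher in Experiment 1 (exact 95% interval 5.11 to 8.20). In Experiment 2 *CNGC1* had 0 counts in the S-WT library, and the ratio against a floor of 3 counts was 241. The exact 95% interval there began at 195. From C-OE2 to S-OE2 the ratio was 18.8 (12.3 to 30.2) in Experiment 1 and 82.5 (45.9 to 166) in Experiment 2. In both experiments the S-OE2 level itself was similar, at 14.1 and 18.1 FPKM, and the comparison groups made the difference. The fitted log2 fold changes were 4.65 ± 1.01 and 5.55 ± 1.05 (SE). A fitted value of a gene with a library at 0 depends on the prior count and is no bound.

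*CHX18*, the cation/H+ exchanger gene, was counted in S-OE2 and hardly elsewhere. It had 82 counts in the S-OE2 library of Experiment 1 and 38 in that of Experiment 2, or 1.45 and 0.705 FPKM. Elsewhere, with Experiment 1 first, the counts were 0 and 1 for C-WT, 0 and 8 for C-OE2, and 4 and 0 for S-WT. The S-OE2 mean of 1.08 ± 0.525 FPKM was followed by 0.0791 ± 0.112 for C-OE2, 0.0526 ± 0.0744 for S-WT and 0.0135 ± 0.0190 for C-WT (SD, n = 2 each), and these lower 3 did not differ beyond their spread. Even in S-OE2 the gene stayed low, with 34.6% and 22.5% of the genes with counts below it. From S-WT to S-OE2 its level in CPM was 14.6-fold higher (5.47 to 54.7) in Experiment 1. In Experiment 2 it was 10.2-fold higher against a floor of 3 counts (interval from 7.88). From C-OE2 to S-OE2 it was 15.4-fold higher against that floor in Experiment 1 (interval from 12.3). It was 4.80-fold higher (2.20 to 11.9) in Experiment 2.

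In the fit across all 44564 genes that passed the filter on low counts, which all 4 genes did, a gene was called at a Benjamini-Hochberg adjusted p below 0.05 in edgeR's quasi-likelihood test. From S-WT to S-OE2, 3 of the 4 genes were called (*NCX1* and *CNGC1* higher, *CAX3* lower) against 7.38% of all genes. From C-OE2 to S-OE2 the same 3 were called against 11.9% of all genes. *CHX18* was not called in either comparison, with log2 fold changes of 4.40 ± 1.22 and 3.48 ± 1.14 (SE). The first became 8.62 without the S-WT library of Experiment 1, and the second 2.14 and 9.01 without the C-OE2 library of Experiment 1 and of Experiment 2. The median log2 fold change of the 4 genes was 3.11 and 3.52, beside 0.01 and 0.02 over all genes. The genes were selected on these 2 comparisons, so the counts carry no further reading. *CHX18* and *CNGC1* were high in S-OE2, and in fits of 4 libraries alone they passed the filter only with that group. In the S-WT to S-OE2 comparison, 0.913% of all genes had a lower fold change than *CAX3*, 1.00% had a higher one than *CNGC1*, 1.19% than *CHX18* and 5.39% than *NCX1*.

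The calls, like those of all genes, leaned on the pairing of libraries by experiment. With no term for the experiment, 0 of the 4 genes were called from S-WT to S-OE2 and 1, *NCX1*, from C-OE2 to S-OE2. Of all 44564 genes, 5 and 263 were called in that fit, against 3288 and 5309 with the term. *CHX18* was called from S-WT to S-OE2 without the filter on low counts, with total-count scaling and in the 4 libraries of that comparison alone, and *CNGC1* lost its call in the latter. Without either of the C-OE2 libraries *CNGC1* lost its call in both comparisons and *CHX18* was called from S-WT to S-OE2, and without either of the S-WT libraries *CHX18* was called from C-OE2 to S-OE2. The *CNGC1* value from S-WT to S-OE2 became 12.11 without the S-WT library of Experiment 1 and 3.10 without the S-OE2 library of Experiment 2.

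**Figure D2:**
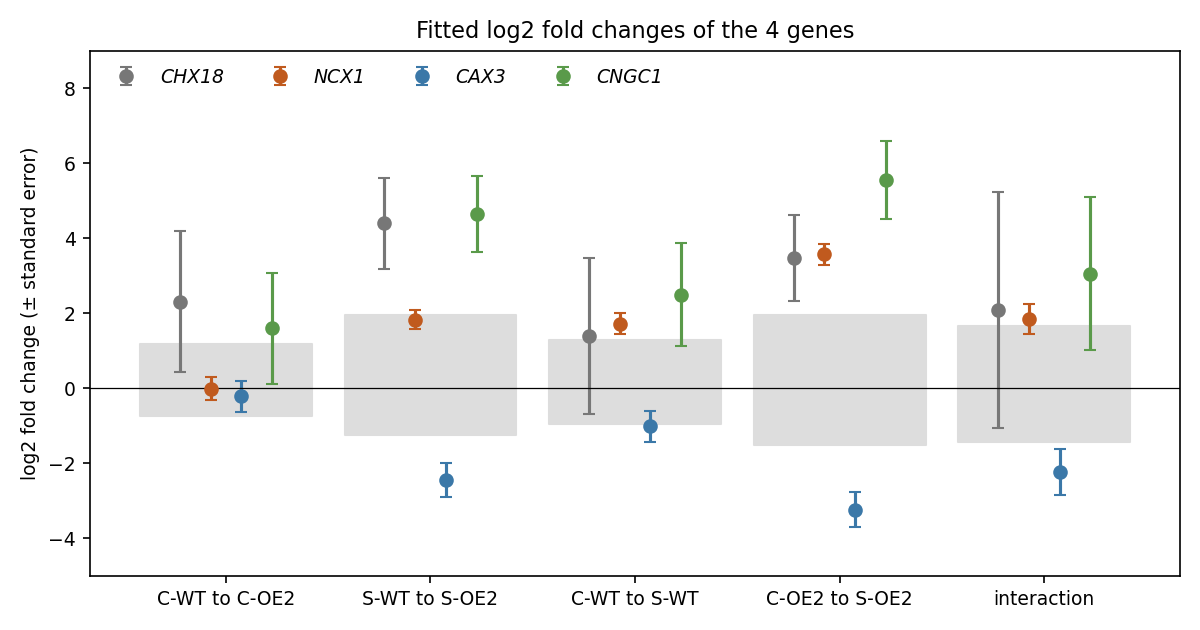
Fitted log2 fold change of each gene (points, with 1 standard error) for the 4 comparisons between groups and for the interaction. Grey blocks span the middle 90% of all 44564 genes. *NCX1* has the shortest error bars, *CHX18* and *CNGC1* the longest.

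In WT alone, salt gave no difference past the adjusted threshold in the 4 genes, though *NCX1* and *CAX3* moved the same way in both experiments. From C-WT to S-WT, 0 of the 4 were called against 0.0875% of all genes, and 2 (*NCX1* and *CAX3*) had an unadjusted p below 0.05, as had 9.64% of all genes. *CHX18* and *CNGC1* passed the filter on low counts only with other groups included. They failed it in the libraries of this comparison alone, so their missing call carries no reading. The log2 fold change of *NCX1* was 1.72 ± 0.28 (SE, edgeR adjusted p = 0.0899). Its level in CPM was 3.48-fold higher (2.10 to 6.09) in Experiment 1 and 3.14-fold higher (1.90 to 5.38) in Experiment 2. *NCX1* was called in this comparison by DESeq2 (adjusted p = 0.00499), which called 1.00% of all genes, and by edgeR without the filter on low counts (adjusted p = 0.0217). Over its alternatives the adjusted p ranged from 0.00499 to 1.

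For *CAX3* the log2 fold change from C-WT to S-WT was -1.01 ± 0.42 (SE, edgeR adjusted p = 0.490), with a level 1.81-fold lower in Experiment 1 and 2.32-fold lower in Experiment 2. It had the same sign in all 13 alternatives and was called in 0 of them. *CNGC1* had a log2 fold change of 2.50 ± 1.37 (SE, edgeR adjusted p = 0.605). This rested on the S-WT library of Experiment 1, where its level was 6.71-fold (3.11 to 17.2) that of C-WT, and without that library the value turned to -5.26. *CHX18* had a log2 fold change of 1.39 ± 2.08 (SE, edgeR adjusted p = 0.872), from counts of 0 and 1 in C-WT and 4 and 0 in S-WT, and it turned to -2.70 without the same library. At this depth a difference in *CHX18* between these groups was not detectable.

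The S-WT library of Experiment 1 also stood above the other S-WT library in 10 of the 12 defense genes with identifiers in the study, and below it in *NRP* and *HSR203J*. The 12 genes summed to 1293 CPM there and 567 CPM in the other S-WT library, the highest and lowest sums outside S-OE2, of which the catalase gene *CAT1* alone gave 560 and 479 CPM. In S-OE2 they summed to 23909 and 15251 CPM. Counts of *PR1a*, a pathogenesis-related gene of salicylic acid responses that was named after its values were seen, were 4470 in S-WT of Experiment 1 and 17 in S-WT of Experiment 2. The 81 and 0 counts of *CNGC1* moved with them, and the part of this difference in the *CNGC1* values was not tested. *NCX1* was also higher in the first of these libraries, at 4.73 against 2.85 FPKM.

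No difference between the lines passed the test in these genes without added salt. From C-WT to C-OE2, 0 of the 4 genes were called against 0.0359% of all genes, 0 had an unadjusted p below 0.05 (4.52% of all genes had one), and DESeq2 called 0 as well (0.418% of all genes). In the libraries of this comparison alone *CHX18* and *CNGC1* failed the filter on low counts, so their missing call carries no reading. *NCX1* had a log2 fold change of -0.02 ± 0.31 (SE, edgeR adjusted p = 1), with ratios of 0.972 (0.506 to 1.90) and 0.998 (0.547 to 1.85) in Experiments 1 and 2. Its sign turned with total-count scaling. *CAX3* had a log2 fold change of -0.22 ± 0.41 (SE, edgeR adjusted p = 1), with ratios of 0.989 and 0.719, and the sign turned without the C-OE2 library of Experiment 2. *CNGC1* was higher in C-OE2 in both experiments, by 2.29-fold (0.946 to 6.35) and 8.23-fold (1.20 to 354), with a log2 fold change of 1.60 ± 1.48 (SE, edgeR adjusted p = 1). Counts of 1 to 22 leave this comparison wide. For *CHX18* the value was 2.31 ± 1.88 (SE, edgeR adjusted p = 1), and its sign turned without the C-OE2 library of Experiment 2.

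The interaction, which is the effect of overexpression under salt minus that without salt, asks whether the 2 effects differ. It was 1.85 ± 0.39 for *NCX1*, -2.23 ± 0.61 for *CAX3*, 3.06 ± 2.03 for *CNGC1* and 2.08 ± 3.14 for *CHX18* (log2 ± SE). Leaving out 1 library moved it to between 1.77 and 1.94 for *NCX1*. The *CAX3* value ranged from -3.31 (without S-OE2 of Experiment 2) to -1.42 (without S-OE2 of Experiment 1), and that of *CNGC1* from 1.23 (without S-OE2 of Experiment 2) to 10.52 (without S-WT of Experiment 1). For *CHX18* it ranged from -0.93 (without C-WT of Experiment 2) to 7.82 (without C-OE2 of Experiment 2). None of the 4 genes was called by edgeR, against 0.0157% of all genes, and 2 (*NCX1* and *CAX3*) had an unadjusted p below 0.05, as had 9.85% of all genes. DESeq2 called the same 2 genes and 1.40% of all genes, and edgeR called *CAX3* without the S-OE2 library of Experiment 2. The effects with and without salt both entered the study's selection of genes on these libraries. The values and calls of the interaction are therefore a description.

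A ratio of 2 genes within a library does not depend on how the library is scaled. The *CAX3* to *NCX1* ratio of FPKM was 63.6 and 94.4 for C-WT and 64.7 and 68.0 for C-OE2, each time with Experiment 1 first. It was 10.1 and 13.0 for S-WT, then 0.231 and 1.19 for S-OE2. C-WT and C-OE2 overlapped, S-WT lay below both, and S-OE2 lay below S-WT. The Ca2+/H+ exchanger gene exceeded the Na+/Ca2+ exchanger-like gene per length in the libraries of C-WT, C-OE2 and S-WT and was below it in S-OE2 of Experiment 1. In S-OE2 of Experiment 2 the exact 95% interval, 0.998 to 1.42, which covers counting error only, included equal levels. Both genes were selected on comparisons with S-OE2, so the ratio and the shares that follow are a description.

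**Figure D3:**
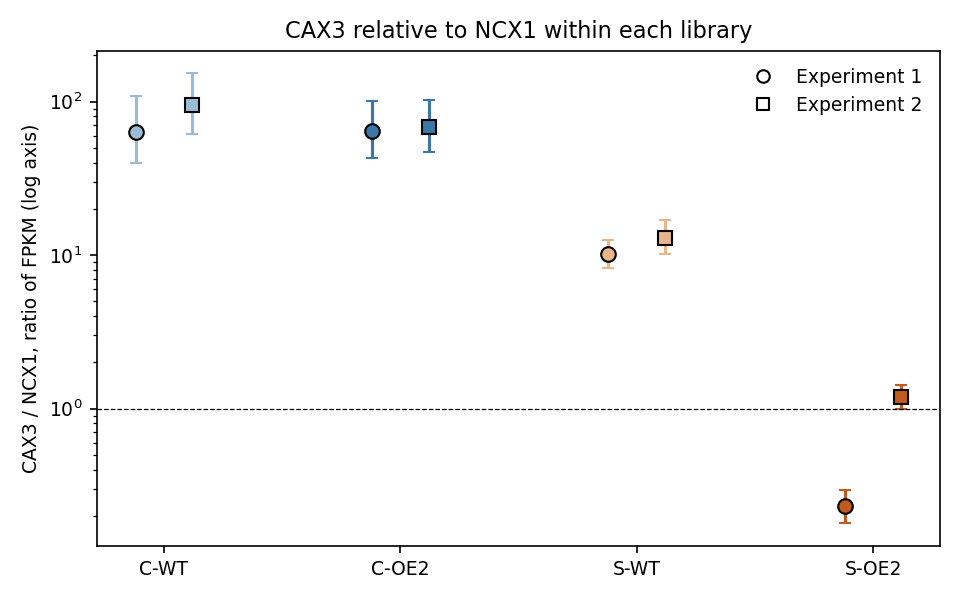
Ratio of *CAX3* to *NCX1* FPKM in each library (log axis) by group, with exact 95% counting intervals. The dashed line marks equal levels. The ratio is 63.6 to 94.4 without added salt, 10.1 and 13.0 for S-WT, and 0.231 and 1.19 for S-OE2.

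*CAX3* made up 97.6% to 98.9% of the summed FPKM of the 4 genes in the control libraries. Its share was 87.0% and 92.9% for S-WT, then 10.5% and 28.6% for S-OE2. In S-OE2 the remainder was mainly *NCX1*, with 45.3% and 24.1%, and *CNGC1*, with 40.1% and 45.6%. The sum itself was 64.0 to 91.8 FPKM in the control libraries. In Experiment 1 it was 54.9 FPKM for S-WT and 35.1 for S-OE2, and in Experiment 2 39.8 and 39.7 FPKM. The sums of the salt groups thus nearly met in Experiment 2 only, while their makeup differed in both experiments.

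The level in Experiment 1 against Experiment 2 was not itself a criterion of the selection, although the study kept only genes that it had called in both experiments. Between Experiment 1 and Experiment 2, 1 of the 4 genes, *NCX1*, was called against 13.8% of all genes, with a log2 fold change of -0.67 ± 0.19 (SE, edgeR adjusted p = 0.0469). It was lower in Experiment 2 in 4 of 4 groups by FPKM. The call was not kept in any of the 11 alternatives, whose adjusted p ranged from 0.0547 to 0.222. For *CNGC1* the value was -1.56 ± 0.81 (adjusted p = 0.239), for *CHX18* -0.39 ± 0.97 (adjusted p = 0.827) and for *CAX3* 0.12 ± 0.30 (adjusted p = 0.836). *CNGC1* was called only when either of the S-OE2 libraries was left out (adjusted p = 0.0155 and 0.0176). It was lower in Experiment 2 in C-WT, C-OE2 and S-WT and higher in S-OE2.

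Over the 8 libraries the *CAX3* profile ran opposite to the other 3. On log2(CPM + 1), Pearson's r of *CAX3* was -0.954 with *CHX18*, -0.951 with *NCX1* and -0.865 with *CNGC1*. It was 0.919 between *NCX1* and *CNGC1*, 0.896 between *CHX18* and *CNGC1* and 0.888 between *CHX18* and *NCX1*. All of these values share the 2 S-OE2 libraries, which lie at 1 end of every profile, and they are a description of these libraries. An r above 0.95 was reached by 700 of the 44563 other genes tested for *CHX18*, 577 for *CNGC1* and 439 for *NCX1*, and by fewer still for *CAX3*. This order turned with the settings: with log2(CPM + 0.1), 404 genes passed for *CAX3* and 131 to 248 for the others, and within experiments 1139 for *CAX3* and 811 to 1010 for the others.

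Among the 24 other genes that the study lists with identifiers, the 3 genes with their highest level in S-OE2 were most like defense genes. *CNGC1* was closest to *EDS1* (r = 0.985), a regulator of immunity upstream of salicylic acid, then to the pathogenesis-related genes *PR1c* (0.980) and *PR1b* (0.978). *NCX1* was closest to *EDS1* (0.966), *PR-R minor* (0.964) and *PR-Q* (0.962). For *CHX18* the closest were *NRP* (0.942), a gene encoding an asparagine-rich protein, *PR1c* (0.932) and *RIN4* (0.925), whose product in Arabidopsis is guarded by immune receptors. All 3 had a positive r with 12 of 12 defense genes and a negative r with 12 of 12 photosynthesis genes, and for each the lowest was *GAPA*, the chloroplast glyceraldehyde-3-phosphate dehydrogenase subunit of the Calvin cycle (-0.854 for *CNGC1*, -0.911 for *NCX1* and -0.910 for *CHX18*).

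*CAX3* showed the reverse. Its profile was closest to *GAPA* (r = 0.966), the F-ATPase delta subunit (0.943) and *PsaE* (0.907), a photosystem I subunit, and lowest against *NRP* (-0.979). It had a positive r with 12 of 12 photosynthesis genes, from 0.538, and a negative r with 12 of 12 defense genes, up to -0.640. The study chose those genes on the same libraries, except *NRP* and a second defense marker, so their likeness is not independent of the selection.

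**Figure D4:**
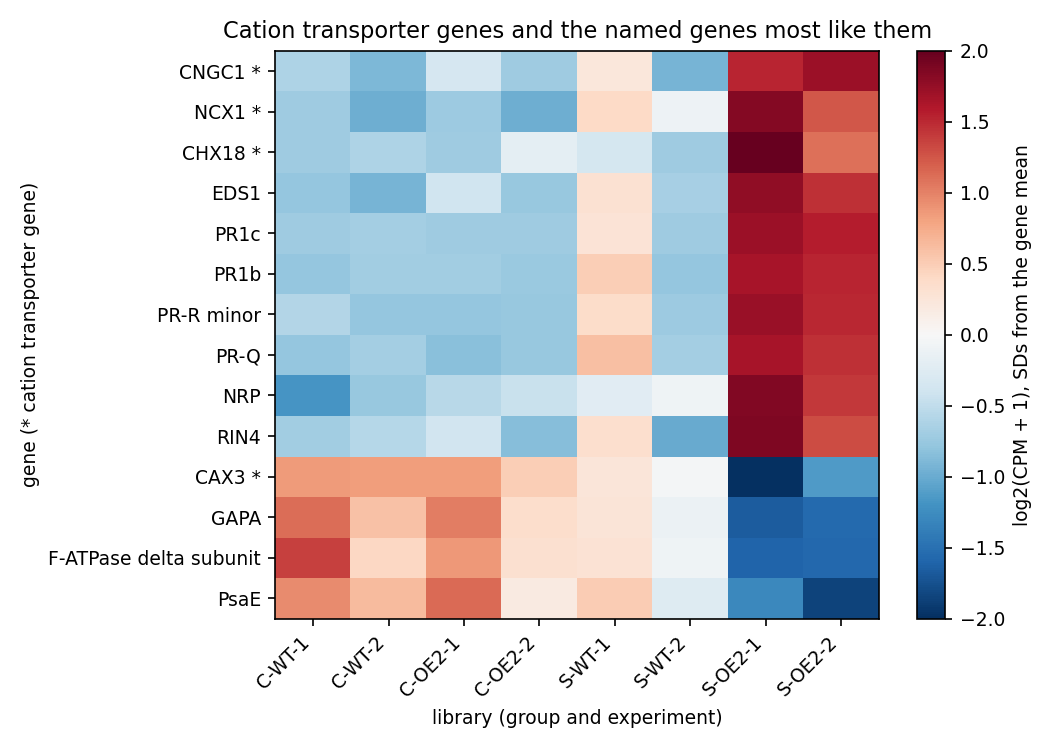
Level of the 4 genes (starred) and of the named genes most like them, as log2(CPM + 1) in standard deviations from each gene's mean, across the 8 libraries, with colours that stop at 2 standard deviations. *CNGC1*, *NCX1*, *CHX18* and the defense genes are highest in both S-OE2 libraries, and *CAX3* and the 3 photosynthesis genes are lowest there.

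The single gene of the whole table with the profile most like *CAX3* was Nitab4.5_0001970g0020 (r = 0.998), on another scaffold, with a counted length of 1580 bases. Its counts in Experiment 1 were 926 for C-WT, 1063 for C-OE2, 716 for S-WT and 68 for S-OE2, beside 705, 956, 672 and 77 for *CAX3*. In Experiment 2 it had 1257, 1407, 630 and 230 counts, beside 1220, 1172, 560 and 227. The counts of the 2 genes were nearly equal in S-OE2 of Experiment 2 but differed in C-WT of Experiment 1. Whether the 2 genes share reads was not tested. For *NCX1* the most alike gene was Nitab4.5_0006133g0030 (r = 0.993), with 0 and 1 counts in C-WT and 2120 and 1039 in S-OE2, and for *CNGC1* it was a gene of the authors' own transcript assembly (r = 0.998) with 6 and 4 counts in C-WT and 183 and 205 in S-OE2. The files give no gene name for any of these 3.

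The genes next to the 4 on their scaffolds were not part of the selection. *CHX18* and *NCX1* were the first genes of their scaffolds, so 6 neighbours existed in all. Of these 6, 3 passed the filter and 1 was called, the gene that lies 7553 bases before *CNGC1* on the opposite strand. Of all genes, 7.38% were called from S-WT to S-OE2 and 11.9% from C-OE2 to S-OE2. The S-WT libraries gave 50 and 40 counts of this neighbour and the S-OE2 libraries 297 and 293, or 1.79 ± 0.380 and 8.81 ± 0.191 CPM (SD, n = 2 each), with no overlap. Its log2 fold change was 2.29 ± 0.44 from S-WT to S-OE2 (SE, edgeR adjusted p = 0.0190) and 2.34 ± 0.44 from C-OE2 to S-OE2 (adjusted p = 0.0103). The C-OE2 libraries gave 16 and 89 counts, with Experiment 1 first, so the size of the second change differed between the experiments. The values from C-WT to C-OE2 and from C-WT to S-WT were 0.12 and 0.18 (edgeR adjusted p = 1 and 0.935), and the interaction was 2.16 ± 0.64 (adjusted p = 0.286).

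This neighbour had 40 counts in the S-WT library of Experiment 2, where *CNGC1* had 0. Whether reads of *CNGC1* were also counted for it was not tested. The gene on the other side of *CNGC1*, 1422 bases away, had 6 and 5 counts in S-OE2 and 0 in the other 6 libraries. The tested neighbours of *CHX18* (40535 bases away) and *CAX3* (191152 bases away) were not called, and the remaining neighbours of *NCX1* and *CAX3* had 0 counts in all 8 libraries.

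**Figure D5:**
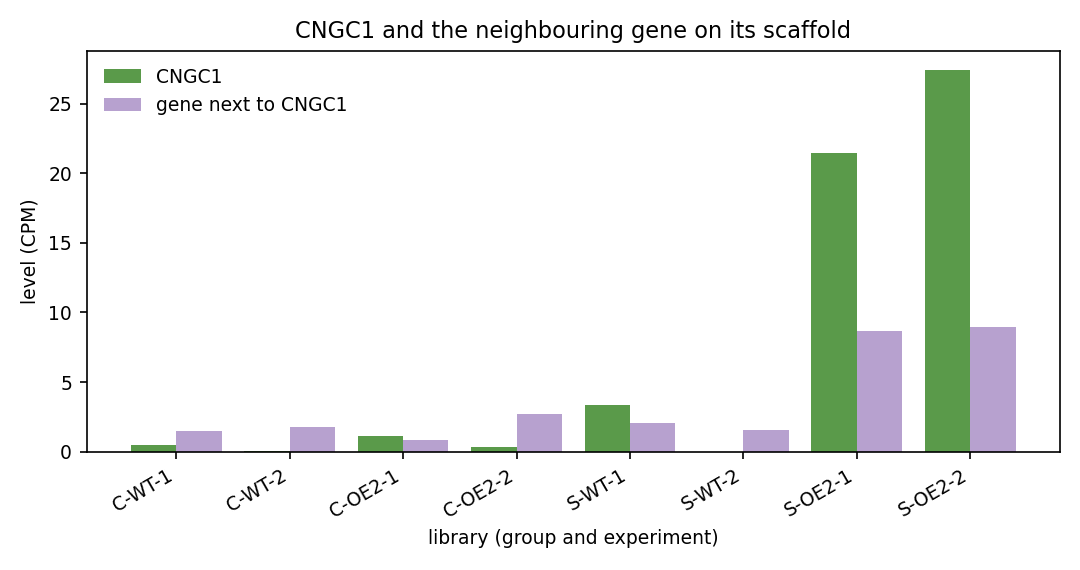
Level in CPM (vertical axis, linear) of *CNGC1* and of the called gene next to it in each of the 8 libraries. Both are highest in the 2 S-OE2 libraries, and the neighbour is at 1.79 ± 0.380 CPM in S-WT.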

How the data were processed

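RNA of pooled leaf blades was sequenced in 8 libraries. Per the labels and the paper, the authors aligned reads with HISAT2 (2.0.5), assembled further transcripts with StringTie (1.3.3b) and counted reads per gene with featureCounts (1.5.0-p3). They deposited raw counts for 81378 genes, of which 11878 came from their assembly, and FPKM values. The deposited FPKM of a library are its counts over gene length, scaled by a single denominator. These denominators were 49.0% to 97.6% of the total count, and 64.9% to 71.6% of the library size after the TMM scaling described below. Lengths of 83.7% of the reference genes are multiples of 3, so most are coding lengths.

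Genes passing filterByExpr were scaled by TMM (factors 0.755 to 1.37) and fitted over all 8 libraries with edgeR 4.0.16 (limma 3.58.1, R 4.3.3), with group and experiment as terms. Its quasi-likelihood test was adjusted over 44564 genes by Benjamini-Hochberg. Each SE is approximate: the size of the log2 fold change over the root of F. The deposited FPKM served for levels only. Ratios within an experiment use CPM with TMM factors, with a floor of 3 counts per library and exact (Clopper-Pearson) 95% intervals.

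The experiment pairs the libraries because the study made its comparisons within each experiment. Deviations from the group means also correlated within an experiment, at 0.383 to 0.517 across genes for the 6 pairs of groups. Within each group the libraries differed beyond counting noise (chi-square over its degrees of freedom 50.0 to 102). No source says more of the independence of these samples than that the experiments were separate.

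The 4 genes and the lists were chosen with earlier results of these data known. The genes named besides them are, of 24 others with identifiers in the study, the 3 with the highest and the 1 with the lowest correlation with each, the most alike gene of *NCX1*, *CAX3* and *CNGC1*, and called neighbours on a scaffold. *PR1a* and Nitab4.5_0007367g0040 were named after their values were seen. None of the identifiers matched the RefSeq gene table, so no other transporter genes were listed, and no sequence is given. The alternatives were DESeq2 1.42.0, no filter, no term for the experiment, total-count scaling, the 4 libraries of a comparison alone, and leaving out each library.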

Additional observations from a re-analysis of the deposited data

How the results depend on the processing

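All 4 genes kept their direction in the 13 alternatives from S-WT to S-OE2 and from C-OE2 to S-OE2. They were selected on these 2 comparisons in the same libraries, so the kept direction is a description. On the log2 scale the ranges were 1.77 to 2.12 and 3.49 to 4.05 for *NCX1*, -3.56 to -1.66 and -4.36 to -2.45 for *CAX3*, 3.10 to 12.11 and 3.57 to 7.40 for *CNGC1*, and 3.37 to 8.62 and 2.14 to 9.01 for *CHX18*. The replicate block decided calls: without it, 0 genes rather than 3 were called from S-WT to S-OE2 and 1 rather than 3 from C-OE2 to S-OE2. In all genes tested, calls without the block numbered 5 and 263, against 3288 and 5309. The ranges given above include the fits with each library left out in turn, which leaves 1 in its group. The interaction gave 2 calls with DESeq2 and 0 to 1 with libraries left out, against 0. Over all genes it gave 7 calls with edgeR, 821 with DESeq2 and 357 without a filter. From C-WT to S-WT, DESeq2 and the fit with no filter each called 1 gene, against 0. Between the experiments, DESeq2, the fit with no filter and total-count scaling each called 0 genes, against 1, and leaving out libraries gave 0 to 1.

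Reversals were in values that were not called, and in 1 gene of few counts above all. From C-WT to C-OE2, *NCX1* was 0.059 with total-count scaling (where the median of all genes was 0.085), and with libraries left out it ranged from -0.095 to 0.057, *CAX3* from -0.66 to 0.16 and *CHX18* from -3.30 to 5.33. From C-WT to S-WT the ranges were -2.70 to 4.36 for *CHX18* and -5.26 to 4.04 for *CNGC1*. The *CHX18* interaction ranged from -0.93 to 7.82. Between the experiments, *CHX18* ranged from -1.25 to 0.50 and *CAX3* from -0.29 to 0.35. Total-count scaling moved the median of all genes to 0.30 from S-WT to S-OE2 and to 0.50 from C-OE2 to S-OE2. With log2(CPM + 0.1), r exceeded 0.95 for 139, 248, 404 and 131 genes (*CHX18*, *NCX1*, *CAX3*, *CNGC1*), and within experiments for 1010, 811, 1139 and 840. For *CHX18* and *CNGC1* from C-WT, the 4 libraries of a comparison alone gave no value, since the genes failed the filter there. Where no value above bears on the cause of a change, the cause was not tested.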
